A study of Mus musculus with 2 samples.

Results

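The genes described here are 10 genes of the p53 pathway: Trp53, which encodes p53 itself, and 9 genes that p53 is known to switch on (Mdm2, Cdkn1a, Gadd45a, Ccng1, Bax, Bbc3, Phlda3, Trp53inp1 and Zmat3). They were chosen by symbol, and all 10 were found among the 20634 genes listed for each of 2 RNA-seq libraries of whole mouse uterus. The libraries came from pregnant females aged 6 to 8 weeks at mating, killed on gestational day 4, counting the day of the vaginal plug as day 1. One library carried the label Mettl3 f/f and 1 the label Mettl3 ed/ed; Mettl3 encodes the catalytic subunit of the enzyme complex that places the mark N6-methyladenosine, or m6A, in RNA. The labels used here do not say what the genotype letters stand for, which promoter or cell type drove any deletion, or how many animals went into a library. The comparison asks how expression differed by genotype. Neither genotype was replicated, so each difference described is one between a pair of libraries, and no test or p-value is given.

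p53 is a transcription factor that is kept scarce by the ubiquitin ligase Mdm2 and is stabilised after DNA damage and other stresses. It then switches on genes that stop the cell cycle, trigger apoptosis, repair DNA or, through Mdm2, shut p53 down again. Most of this control acts on the p53 protein, so the level of Trp53 RNA is not a measure of p53 activity. In the uterus p53 is known for its part in decidual cells, where its loss in mice leads to early ageing of the decidua and preterm birth.

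p53 binds pairs of a 10-base motif, the p53 half-site, whose pattern reads the same on both strands. A single match is thus not a full p53 site. The promoter windows of RefSeq (GRCm38.p6, 250 bases before to 50 after each annotated start) held 8 of the 10 genes, all but Trp53inp1 and Zmat3, and 6 of these 8 had at least 1 exact half-site. Over all genes listed in the libraries with a window (16288), 8.48% had one. Bbc3 and Phlda3 had no exact match in their windows, which says only that these letters are not there. The genes other than Trp53 were chosen as known p53 targets, and p53 binds this motif. Any comparison of half-sites between these genes and all genes is therefore not independent of the choice of genes, and no conclusion is drawn from it. The stretches around the matches are shown with the half-site in capitals, 5′ to 3′ on the strand of the gene.

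Cdkn1a (chr17:29090881-29090962, + strand): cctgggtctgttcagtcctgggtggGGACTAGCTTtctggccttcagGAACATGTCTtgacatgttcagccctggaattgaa

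Trp53 (chr11:69580259-69580318, + strand): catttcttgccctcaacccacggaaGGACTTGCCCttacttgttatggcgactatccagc

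Mdm2 (chr10:117710910-117710969, - strand): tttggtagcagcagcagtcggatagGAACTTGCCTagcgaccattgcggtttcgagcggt

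Ccng1 (chr11:40755437-40755496, - strand): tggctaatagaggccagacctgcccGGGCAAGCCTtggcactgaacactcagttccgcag

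Gadd45a (chr6:67037413-67037472, - strand): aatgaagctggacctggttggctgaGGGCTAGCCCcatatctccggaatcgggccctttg

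Bax (chr7:45467065-45467124, - strand): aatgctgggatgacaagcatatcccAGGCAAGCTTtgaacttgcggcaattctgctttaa

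Cdkn1a alone had a pair of half-sites, beginning 73 and 51 bases before the more upstream of its annotated transcript starts; 0.301% of all genes with a window had at least 2. The single matches began 40 bases before the start in Gadd45a, 75 in Trp53, 185 in Ccng1, 186 in Mdm2 and 201 in Bax. Genes with a match included ones that were higher in ed/ed (Gadd45a) and lower (Trp53), and any relation between a match and the ratio was not tested. Of other promoter motifs, each searched on both strands and counted whether or not it overlapped another, GGGCGG was in 8 of the 11 windows of these 8 genes and CCAAT in 5 of the 11. Among all 32851 windows, 35.7% had GGGCGG and 37.4% had CCAAT.

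The levels below are FPKM, that is fragment counts scaled to transcript length and to library size, so they can be compared between genes. The unit is inferred, as the files name none. Mettl3, the targeted gene, was at 10.6 FPKM in the f/f library and 10.2 FPKM in the ed/ed library, so its transcript level did not separate them and the directions below rest on the labels. The smallest steps between low values put the depth of the f/f library at about 18100000 fragments and that of the ed/ed library at 17200000. Intervals given below are 95% intervals for counting error at those depths, and they leave out any difference between animals. Uterine genes were present, with the homeobox genes Msx1 at 443 FPKM in f/f against 486 FPKM in ed/ed, Hoxa10 at 142 and 81.7, and Hoxa11 at 91.1 and 47.8. The embryo markers Cdx2, Nanog and Pou5f1 were listed at 0 in both. They belong to a list of 10 ovary, oviduct and embryo markers, of which 3 reached 1 FPKM in either library. Those were Ovgp1 at 41.0 FPKM in f/f against 60.8 in ed/ed, Inha at 2.28 and 1.17, and Star at 0.667 and 2.29.

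The 10 genes did not shift together. Gadd45a was more than 2-fold higher in the ed/ed library, Trp53 and Bbc3 were more than 2-fold lower, and the other 7 lay within 2-fold. A ratio here is the log2 of the ed/ed level over the f/f level after adding 1 FPKM to each, a scale that understates differences of low genes, and a gene was called at 2-fold. All 10 genes had at least 1 FPKM in either library, the filter that 12165 genes met. Of those 12165 genes, 2.68% were called higher and 6.22% lower, 8.90% in all, against 1 and 2 of the 10. The median log2 ratio of the 10 genes was -0.32, beside -0.26 over all genes, and 5 of them lay above and 5 below the median of all genes. Above 0 were 4 of the 10, beside 29.6% of all genes. At a 1.5-fold rule 1 gene was higher and 4 were lower, with Ccng1 and Trp53inp1 added, beside 7.04% and 23.4% of all genes. The median of the set thus lay close to that of all genes, while its single genes ranged from -1.32 to 1.204. The shares called were above those of all genes, but they rest on 10 genes in a pair of libraries. No conclusion is drawn from them.

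**Figure D1:**
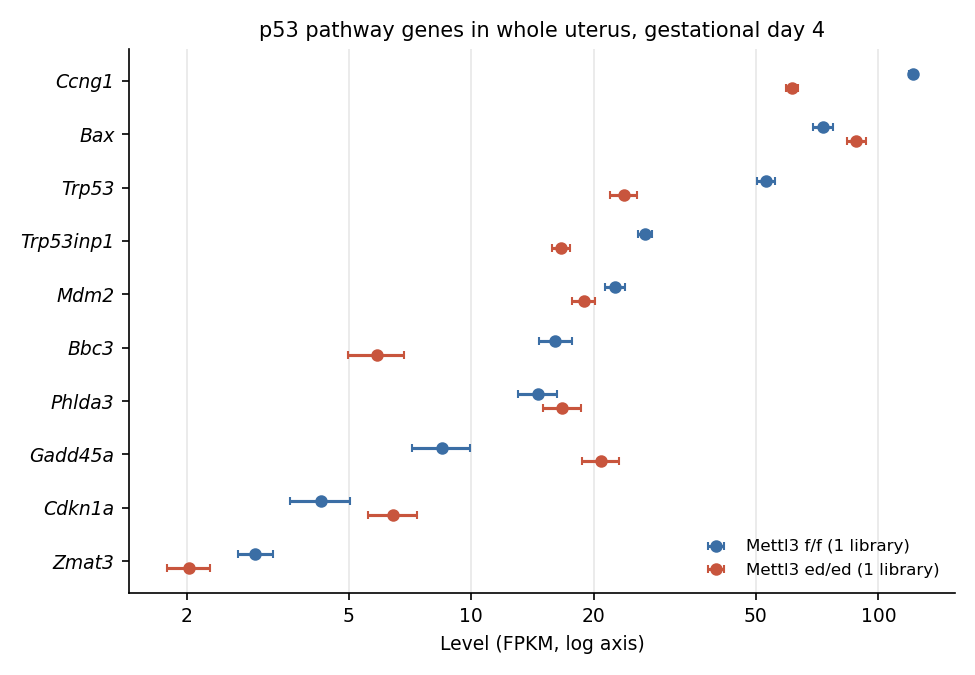
Level of each of the 10 p53 pathway genes in FPKM (log axis) in the f/f library (blue) and the ed/ed library (red), with bars for the 95% counting interval at the estimated depth and genes in order of their f/f level. Trp53, Ccng1 and Bbc3 lie well to the left in ed/ed and Gadd45a to the right, while the bars of Phlda3 overlap between the libraries.

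Trp53 (ENSMUSG00000059552, chromosome 11, 69580359 to 69591873, GRCm38) was at 52.98 FPKM in f/f against 23.7 FPKM in ed/ed. The log2 ratio was -1.13, a 2.19-fold lower level, and the counting interval of the FPKM ratio ran from 0.407 to 0.490. It ranked at percentile 3.93 of the ratios of all genes. Measured from the median gene the ratio was -0.87, short of 2-fold, so the call depended on the scale. A processed pseudogene, Trp53-ps, is annotated on chromosome 17 and is not analysed here; the sources used here do not say how reads were divided between copies. The relatives of p53 that act in epithelial stem cells and development were scarce, with Trp63 at 0.932 FPKM in f/f against 0.0706 in ed/ed, and Trp73 at 0.0556 in f/f but listed at 0 in ed/ed.

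Mdm2 (chromosome 10, 117688875 to 117710758), the ubiquitin ligase that marks p53 for destruction and is itself a p53 target, was at 22.6 FPKM in f/f against 18.9 in ed/ed. Its log2 ratio of -0.24 was almost that of the median gene, at percentile 51.5, and turned positive under 3 of 9 other settings. Because Trp53 was lower and Mdm2 near the median, Mdm2 RNA stood at 0.426 of the Trp53 level in f/f against 0.798 in ed/ed. Such a ratio inside a library does not depend on how libraries are scaled. Mdm4, the partner that blocks the activation domain of p53, was at 19.2 FPKM in f/f against 15.5 in ed/ed, so the ratio of Mdm2 to Mdm4 was 1.17 and 1.22.

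Among the genes of cell cycle arrest the direction was mixed. Gadd45a (chromosome 6, 67035096 to 67037457), which encodes a stress sensor that binds PCNA and the kinase MEKK4, was at 8.46 FPKM in f/f against 20.8 FPKM in ed/ed. This was 2.30-fold higher (log2 ratio 1.204, counting interval of the FPKM ratio 2.02 to 2.996), at percentile 98.3 of all genes. A noncoding transcript on the opposite strand, E230016M11Rik, covers 337 of 1764 exonic bases of Gadd45a and is not analysed here. No source used here says that strand was recorded, and without it reads of these overlapping genes could not be told apart. The same holds for Cdkn1a and AC167363.2 on the opposite strand (273 of 3553 exonic bases), and for Bax and Gm45808 on the same strand (192 of 1576), where strand would not separate them; neither of those genes is analysed here. Its paralog Gadd45b was at 2.47 and 5.66 FPKM, Gadd45g at 29.4 and 34.4, and the GADD45-binding protein gene Gadd45gip1 at 30.8 and 35.8. All 4 genes were higher in ed/ed on the deposited scale, beside 29.6% of all genes. Each other scaling raises ed/ed, so these genes could not turn lower under it. Gadd45a alone passed 2-fold on the deposited scale, where 2.68% of all genes were called higher. Gadd45b (log2 ratio 0.94) passed it too under each other scaling and after length correction. Under those scalings 387 of 12193 to 690 of 12290 genes were called higher, and after length correction 4.33%.

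Cdkn1a (chromosome 17, 29090976 to 29100727), which encodes p21, the inhibitor of cyclin-dependent kinases that carries out p53-induced arrest, was at 4.27 FPKM in f/f against 6.42 FPKM in ed/ed. The log2 ratio of 0.49 was within 2-fold, but the counting interval of the FPKM ratio, 1.21 to 1.89, lay above 1, and the gene ranked at percentile 91.3. It was a low gene in both libraries, at percentile 24.1 and 40.2 of expressed genes by level. The other inhibitors of the same kinds were not higher with it as a group. Cdkn1b (p27) was at 34.3 and 23.2 FPKM, Cdkn1c (p57) at 30.3 and 22.2, Cdkn2c (p18) at 27.6 and 14.4, and Cdkn2d (p19) at 11.6 and 11.9. Cdkn2b (p15) was at 0.0477 and 1.02 FPKM, and Cdkn2a, whose ARF product restrains Mdm2, was at 0.406 and 0.797. Of these 7 inhibitors 6 met the filter on the deposited scale, all but Cdkn2a, and 0 passed 2-fold. Of all genes 2.68% were called higher and 6.22% lower. Cdkn2b, near 0 in f/f and with a log2 ratio of 0.95, was the 1 inhibitor that passed under 3 of the 4 other scalings. Under those 3, 519 of 12240 to 690 of 12290 genes were called higher.

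Ccng1 (chromosome 11, 40748552 to 40755311), encoding cyclin G1, a p53 target that guides a phosphatase to Mdm2, was the most abundant of the 10 genes in f/f at 122 FPKM and fell just short of the 2-fold rule. It was at 61.5 FPKM in ed/ed, with a log2 ratio of -0.97 and a counting interval of the FPKM ratio from 0.485 to 0.526. Its relatives Ccng2, at 36.6 and 19.6 FPKM, and Ccni, at 156 and 108 FPKM, were also lower, and none of the 3 passed 2-fold. Ccng1 stood at 2.30 times the Trp53 level in f/f and 2.60 times in ed/ed, so these genes had nearly the same ratio between libraries.

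Among the genes of apoptosis, Bbc3 and Bax differed in direction. Bbc3 (chromosome 7, 16308393 to 16318205), which encodes PUMA, a BH3-only protein that frees the cell-death effectors, was at 16.1 FPKM in f/f against 5.86 FPKM in ed/ed. It had the lowest ratio of the 10 genes, 2.49-fold lower (log2 ratio -1.32, counting interval of the FPKM ratio 0.302 to 0.437), at percentile 2.25 of all genes. Bax (chromosome 7, 45461697 to 45466898), the effector that makes pores in the mitochondrial outer membrane, was at 73.2 FPKM in f/f against 88.3 FPKM in ed/ed, a log2 ratio of 0.27 at percentile 84.6. The ratio of Bax to Bbc3 inside each library was 4.54 in f/f against 15.1 in ed/ed, 3.32 times higher. Bax and the guardian gene Bcl2l1 (BCL-XL) kept nearly the same ratio, 1.06 in f/f against 1.01 in ed/ed.

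The other expressed BCL2 family genes lay within 2-fold on the deposited scale. Of 10 expressed effectors and BH3-only genes, 1 (Bbc3) was lower by 2-fold and 0 were higher, beside 6.22% lower and 2.68% higher of all genes. Under other scalings 1 or 2 of the 10 were higher, beside 387 of 12193 to 690 of 12290 genes over all. The 10 had a median of -0.21 on the log2 scale. Pmaip1, which encodes NOXA and is also a p53 target, was at 9.98 FPKM in f/f against 4.71 in ed/ed, while Bid was at 6.16 and 11.1 and Bik at 13.4 and 26.2. All 7 guardian genes, which hold the effectors in check, lay above the median of all genes with a median log2 ratio of 0.04, and 0 of them passed 2-fold. Bcl2l1 was at 69.04 and 87.5 FPKM and Bcl2l2 at 15.1 and 12.5. Mcl1, at 74.3 and 76.3 FPKM, was chosen after its values were seen, as an abundant guardian that differed little. Bcl2a1a, Bcl2a1b and Bcl2a1d are near-identical copies, so their own values are uncertain. Bbc3 RNA stood at 0.217 of the Mcl1 level in f/f against 0.0768 in ed/ed.

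Phlda3, Trp53inp1 and Zmat3 lay within 2-fold. Phlda3 (chromosome 1, 135766119 to 135769136), whose product competes with the kinase AKT for membrane lipids, was at 14.6 FPKM in f/f against 16.7 in ed/ed, and the counting interval of its FPKM ratio, 0.980 to 1.34, spanned 1. Its relative Phlda1 was at 14.4 and 5.76 FPKM, 2.29-fold lower on the deposited scale and within 2-fold under 3 of the 4 other scalings, and Phlda2 at 1.26 and 0.620. Trp53inp1 (chromosome 4, 11156431 to 11174379), a stress protein of autophagy and p53 activation, was at 26.7 FPKM in f/f against 16.7 in ed/ed, a log2 ratio of -0.65, and its relative Trp53inp2 at 26.6 and 21.3. Zmat3 (chromosome 3, 32334792 to 32366014), an RNA-binding zinc finger protein, was the lowest of the 10 at 2.95 and 2.02 FPKM, a log2 ratio of -0.39. In that family Zmat2 was at 47.9 and 58.4 FPKM, Zmat5 at 34.2 and 33.8, Zmat1 at 2.44 and 1.35, and Zmat4 at 0.0552 in f/f but listed at 0 in ed/ed.

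**Figure D2:**
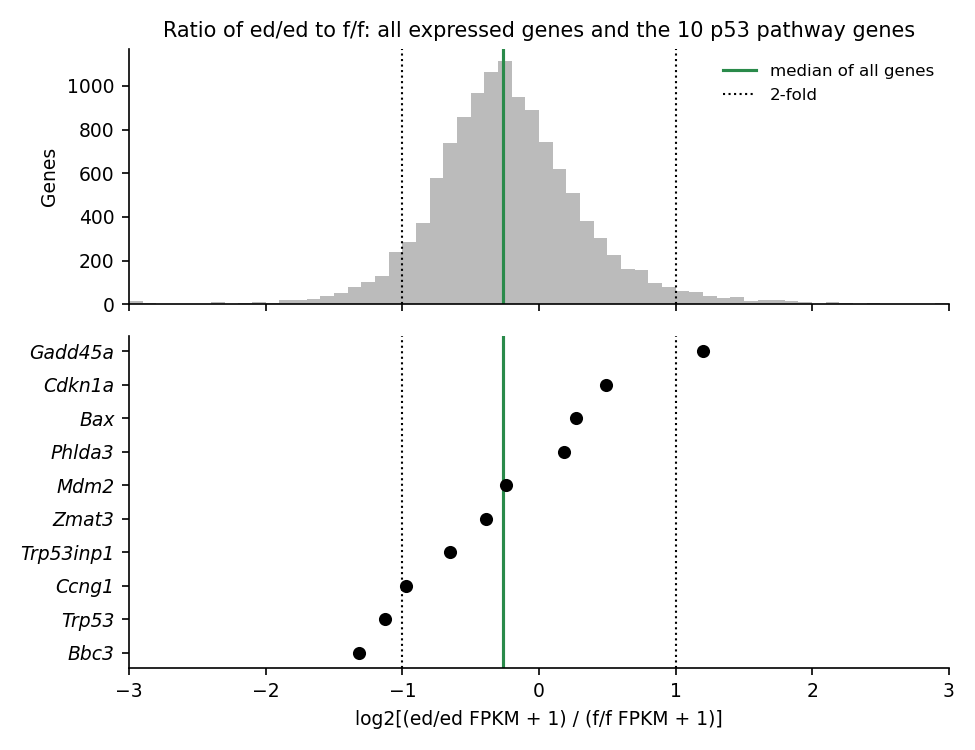
Upper panel, number of genes by log2 ratio of ed/ed to f/f (pseudocount of 1 FPKM) for the 12165 expressed genes, with values beyond 3 in either direction drawn in the end bins; lower panel, the 10 p53 pathway genes on the same axis. The 10 genes spread over both sides of the median of all genes (-0.26), with Gadd45a beyond the upper 2-fold line and Trp53 and Bbc3 beyond the lower one.

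The order of levels also differed between the libraries. In f/f it ran Ccng1, Bax, Trp53, Trp53inp1, Mdm2, Bbc3, Phlda3, Gadd45a, Cdkn1a and Zmat3, and only the neighbours Bbc3 and Phlda3 had overlapping counting intervals. In ed/ed Bax was first at 88.3 FPKM and Ccng1 second at 61.5. Trp53, Gadd45a, Mdm2, Phlda3 and Trp53inp1 followed between 23.7 and 16.7 FPKM, each overlapping its neighbour. Cdkn1a and Bbc3, at 6.42 and 5.86 FPKM, also overlapped, and Zmat3 was last. Gadd45a moved from rank 8 to rank 4 and Bbc3 from rank 6 to rank 9.

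**Figure D3:**
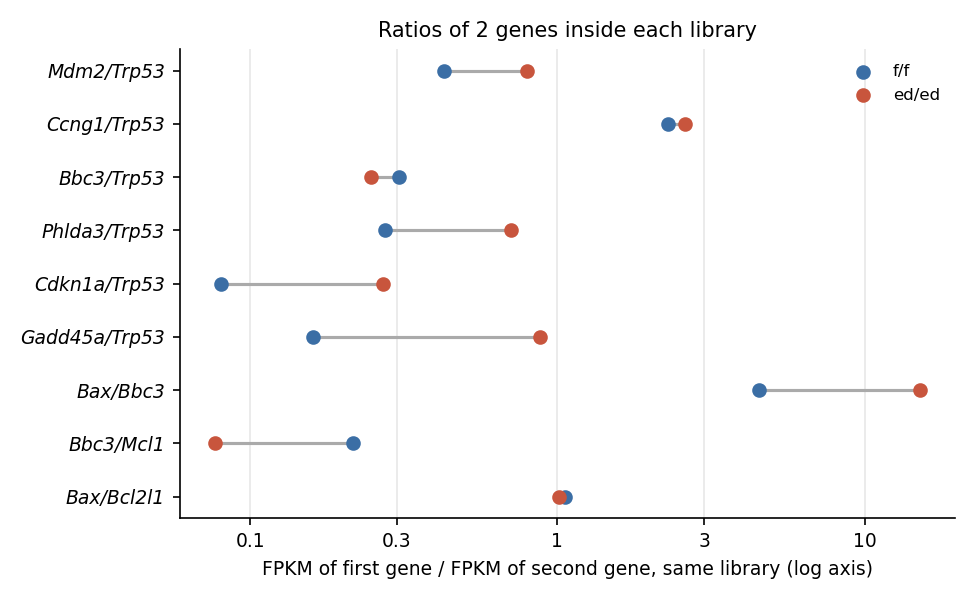
Ratio of the FPKM of 2 genes inside the f/f library (blue) and inside the ed/ed library (red), on a log axis, a quantity that does not change with library scaling. Relative to Trp53, Ccng1 and Bbc3 had similar ratios in both libraries, whereas Mdm2, Phlda3, Cdkn1a and Gadd45a stood higher in ed/ed. Trp53 itself was lower in ed/ed, which raises every ratio to it.

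Set against Trp53 in the same library, the targets fell on a range. Bbc3 stood at 0.304 of the Trp53 level in f/f against 0.248 in ed/ed, and Phlda3 at 0.275 and 0.705. Cdkn1a stood at 0.0806 and 0.271, and Gadd45a at 0.160 and 0.879, which was 5.50 times higher in ed/ed. These ratios also carry the lower level of Trp53 itself, which lay 1.83-fold below the median gene after adding 1 FPKM. A gene that did not differ would thus also stand higher against Trp53 in ed/ed. Gadd45a and Ccng1, both linked to arrest, also parted, with a ratio of Gadd45a to Ccng1 of 0.0695 in f/f against 0.338 in ed/ed.

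The wider pathway was read from lists of textbook genes. Of 70 expressed p53 targets outside the 10, 4 were called higher and 6 lower (5.71% and 8.57%), beside 2.68% and 6.22% of all genes, and their median log2 ratio was -0.18. The balance of all genes turned with the scale. Under the median of ratios 595 of 12266 genes were higher and 392 lower, and under the reference genes 690 and 339 of 12290. The balance of these targets turned too: 10 were higher and 4 lower under the median of ratios, and 11 and 4 under the reference genes, with medians of 0.077 and 0.14. On the deposited scale the higher ones were Sfn (14-3-3 sigma, an epithelial arrest protein) at 4.11 and 10.1 FPKM, the death receptor gene Fas at 0.319 and 1.94, the epoxide hydrolase gene Ephx1 at 8.79 and 22.3, and the repair nuclease gene Ercc5 at 10.6 and 23.2. Sesn2, encoding sestrin 2, a stress-induced inhibitor of mTORC1, had the lowest ratio of these 70 genes, at 14.4 FPKM in f/f against 3.17 in ed/ed (3.71-fold lower). The others were the death receptor gene Tnfrsf10b at 19.97 and 9.29 FPKM, Psrc1, a spindle protein gene, at 7.79 and 2.46, the phospholipid transfer protein gene Pltp at 30.0 and 12.3, the drug efflux pump gene Abcb1a at 5.28 and 1.59, and Kitl (stem cell factor) at 11.7 and 3.99. By role, 1 of 14 arrest targets was higher and 1 lower, 1 and 1 of 15 apoptosis targets, 1 and 2 of 15 metabolic and redox targets, and 1 and 2 of 26 repair and feedback targets.

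Upstream of p53, 0 of 12 damage-sensing genes were called higher and 1 was called lower, near the 6.22% of all genes, with a median log2 ratio of -0.49. That gene, within 2-fold under 3 of the 4 other scalings, was Rad50, part of the complex that binds broken DNA ends, at 6.60 FPKM in f/f against 2.45 in ed/ed. Its partner Nbn was at 8.55 and 4.40 FPKM, the repair kinase gene Prkdc at 3.51 and 1.44, and Trp53bp1, which encodes the break-marking protein 53BP1, at 11.2 and 6.47. Of 15 genes that control the p53 protein 0 passed 2-fold, with a median of -0.18 that lay close to that of all genes; Setd7, a lysine methyltransferase gene, was at 16.8 and 8.88 FPKM, Trim28 at 88.8 and 58.1, and the ubiquitin ligase genes Rchy1 at 28.2 and 19.0 and Ube4b at 12.4 and 8.38.

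On the deposited scale 29.6% of all genes had a log2 ratio above 0. Mitotic genes, which p21 is known to repress through the DREAM complex, were all below 0 on that scale. Under the 3 scalings that shifted ratios most, 18 of 20 were below 0. Of the 20, 4 were called lower and 0 higher, beside 6.22% and 2.68% of all genes. Under the median of ratios and reference gene scalings and after length correction 1 of the 20 was called lower. Over all genes 392 of 12266, 339 of 12290 and 347 of 12158 were called lower under those settings, in that order. The median of the 20 mitotic genes was -0.77 on the log2 scale, with 18 below the median of all genes. Prc1, a spindle midzone protein gene, was at 19.3 FPKM in f/f against 6.30 in ed/ed, Cdc25c at 4.25 and 1.36, the cyclin B1 gene Ccnb1 at 18.9 and 8.32, and Cdc20 at 25.3 and 11.7. The cyclins and kinases that p21 binds, with the RB and E2F genes, had 0 of 14 past 2-fold and a median of -0.24. Among them Ccne2 was at 2.16 and 0.764 FPKM, Rbl1 at 10.9 and 6.87, Rbl2 at 16.2 and 10.5, and E2f4 at 25.6 and 17.0. Any link between the level of Cdkn1a and the mitotic genes was not tested.

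**Figure D4:**
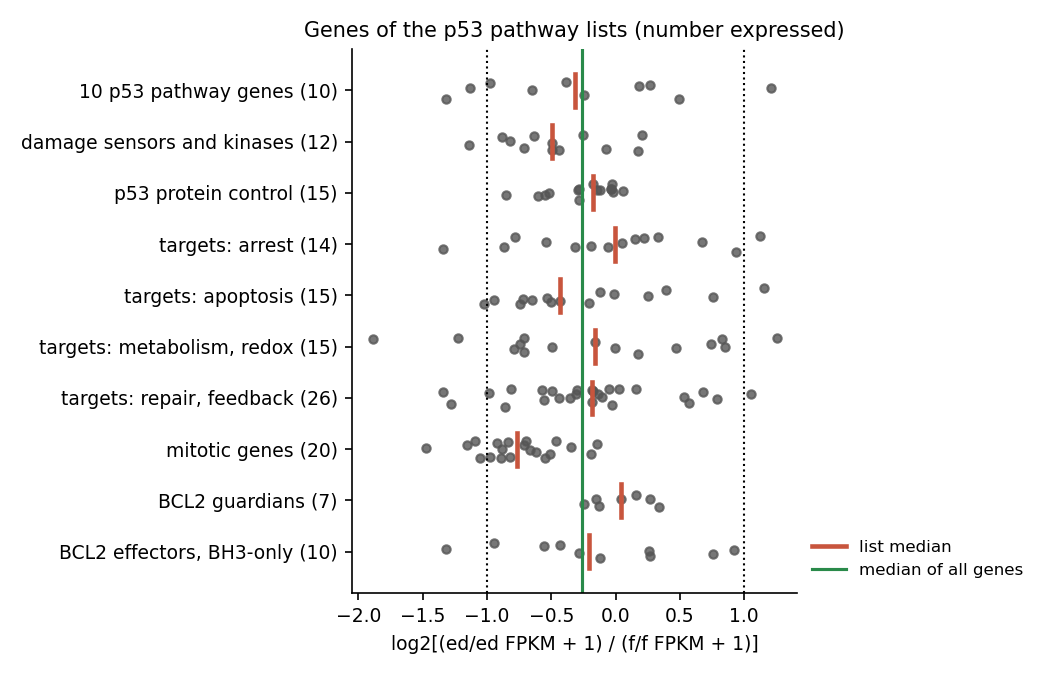
log2 ratio of ed/ed to f/f (pseudocount of 1 FPKM) for every expressed gene (points, spread vertically only to separate them) in lists of the p53 pathway, with the number of genes in brackets, the list median (red) and the median of all genes (green); dotted lines mark 2-fold. The mitotic genes lie to the left of 0 (median -0.77), whereas the 10 p53 pathway genes and the other p53 targets straddle the median of all genes.

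The cell-type markers of the 2 libraries also differed, and in bulk tissue fewer cells of a type and less RNA per cell cannot be told apart. Of all genes 6.22% were called lower and 2.68% higher, and 29.6% had a log2 ratio above 0. Under reference gene scaling 339 of 12290 genes were called lower and 690 higher, and after length correction 2.85% and 4.33%. All 6 expressed endothelial markers had a log2 ratio below 0 and 5 were called lower (2 under reference gene scaling or after length correction), with a summed level of 147 FPKM in f/f against 59.0 in ed/ed. All 9 stromal markers were below 0 and 4 were called lower (2 under those settings), with sums of 1119 and 532 FPKM. The 6 expressed myometrial markers were all above 0 and 1 was called higher (3 under those settings), with sums of 470 and 792. Of the 7 macrophage markers 6 were above 0 and 1 below, and 2 were called higher. The macrophage markers summed to 162 and 314, of which Lyz2 alone made 86.6 and 188. The 8 epithelial markers summed to 2721 and 2781 but 5 were above 0 and 3 below, with Cldn3 at 967 and 997 FPKM, Krt8 at 430 and 307, and Krt18 at 345 and 254. Of 6 gland markers, 3 were listed at 0 for f/f, as were 2 for ed/ed. The 3 expressed ones were all called higher. Foxa2 was at 0.924 FPKM in f/f against 4.40 in ed/ed and Sox9 at 0.387 and 2.84, both low levels. The most abundant, Spink1, was at 15.7 FPKM in f/f against 35.96 FPKM in ed/ed. Of the markers listed for endothelium, stroma, myometrium, epithelium and macrophages 0 were at 0. The part of these shifts in the levels of the p53 pathway genes was not tested.

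Ratios also moved with transcript length: with genes split by length into 10 groups of equal size, the group medians ran from -0.01 for the shortest to -0.43 for the longest transcripts. The 10 genes had a median transcript length of 1974 nt, beside 3089 nt over all genes, from 1100 nt in Bax to 7797 nt in Zmat3. After correction for that trend, a step that also centres all ratios near 0, Bbc3 stayed lower by 2-fold at -1.15 and Gadd45a higher at 1.29, beside 2.85% and 4.33% of all genes called. Trp53 was then at -0.96, Ccng1 at -0.70, Cdkn1a at 0.68, and the median of the 10 genes at 0.014.

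**Figure D5:**
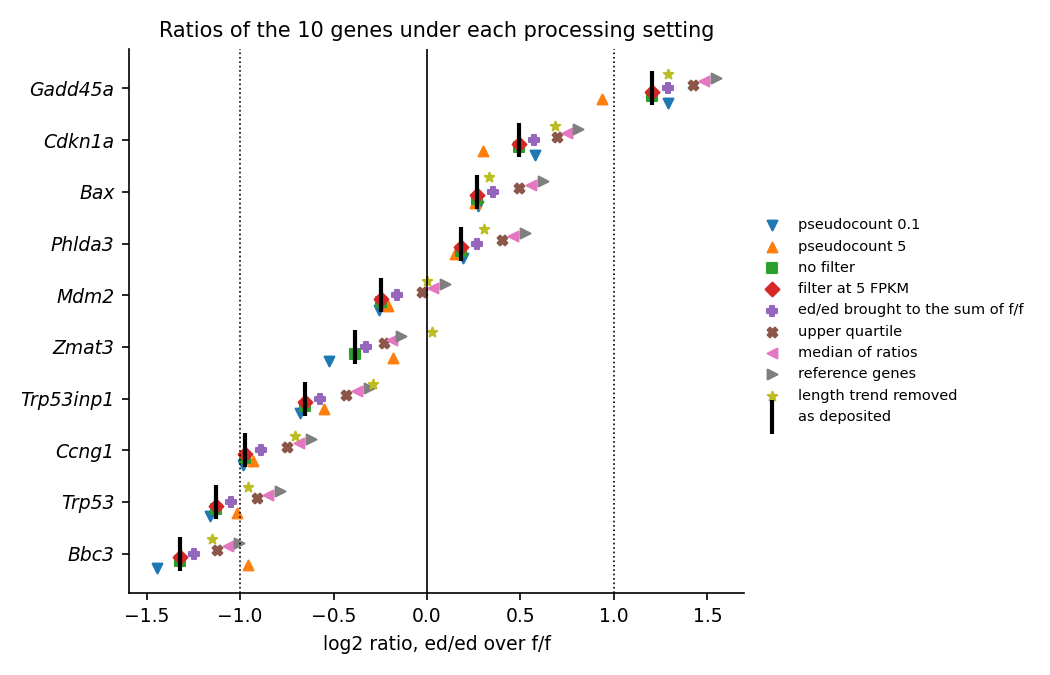
log2 ratio of ed/ed to f/f for each of the 10 genes with the values as deposited (black bars) and under 9 other settings of pseudocount, filter, scaling and length correction (coloured symbols), with lines at 0 and at 2-fold in each direction. Gadd45a stays at or near the upper 2-fold line and Bbc3 at or near the lower one, whereas Trp53 lies on either side of it and Mdm2 and Zmat3 change sign.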

How the data were processed

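The deposited files give 1 value per gene for each library, with Ensembl identifier and symbol. The submitters' processing notes name HISAT2 2.2.1 and Cufflinks 2.2.1 and the mouse builds mm9 and mm10, without roles. The authors' deposited values were taken as FPKM because Cufflinks writes FPKM and the sums differ (522049 and 491403); the sources used here name no annotation or filter. Libraries were made with a TruSeq RNA kit from TRIzol RNA, per the labels' protocols.

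FPKM values were compared as log2 ratios with a pseudocount of 1, among genes reaching 1 FPKM in at least 1 library, and called at 2-fold, with Python 3.11.15, pandas 2.3.3, scipy 1.17.1 and statsmodels 0.14.6. There is no replicate, hence no test. The scripts were tested on simulated data. Lengths and gene coordinates came from GENCODE M21 (GRCm38), matched for 20557 genes; they locate genes, not the authors' reads. Depth was read from the smallest step between low values times effective length (transcript less 250 nt) in 268 genes (f/f) and 272 genes (ed/ed) with 1 transcript over 1000 nt. Estimated fragments gave exact Poisson and conditional binomial 95% intervals, which assume the longest coding transcript and cover counting error only. A lowess curve (fraction 0.3) of ratio on log2 length gave the length correction.

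The 10 genes and the 30 lists (262 symbols, 256 matched, some in several lists) were chosen with earlier results of these data known. Named were all 10 genes, their paralogs, members of the p53 pathway lists past 2-fold and otherwise up to 4 with the largest ratios, and up to 3 of the most abundant cell-type markers. Named after their values were seen were Mcl1 and the embryo markers at 0. Other pseudocounts, filters, scalings and a 1.5-fold rule were tried.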

Additional observations from a re-analysis of the deposited data

How the results depend on the processing

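No paired analysis was possible because each genotype has 1 library, and for that reason no library could be left out. Scaling ed/ed to the sum of f/f, the upper quartile, the median of ratios or the reference genes raised every log2 ratio by 0.09, 0.23, 0.29 and 0.36 before the pseudocount. Bax, Cdkn1a, Phlda3 and Gadd45a stayed above 0 and Trp53, Bbc3, Ccng1 and Trp53inp1 below 0 under all 9 settings other than the fold rule. A filter leaves a ratio unchanged, a pseudocount cannot change its sign, and each of these scalings raises it. For genes above 0, only the length correction could therefore have changed the sign. Gadd45a passed 2-fold in 8 of the 9, Bbc3 in 8 and Trp53 in 5. Both filter settings repeat the deposited ratio and add nothing to these counts. Mdm2 ranged from -0.25 to 0.10 and Zmat3, which has no value under the filter at 5 FPKM, from -0.52 to 0.03.

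Of the 10 genes, 1 was lower (main count 2) with a pseudocount of 5 FPKM, under the upper quartile, median of ratios and reference gene scalings, and without the length trend; 4 were lower at 1.5-fold, beside 23.4% of all genes. None (0) was higher with a pseudocount of 5. Their median log2 ratio was -0.13, -0.075 and -0.020 under the upper quartile, median of ratios and reference gene scalings and 0.014 without the length trend. Of the other p53 targets 7, 0, 7, 10, 11 and 12 were higher with a pseudocount of 0.1, a pseudocount of 5, the upper quartile, median of ratios and reference gene scalings and the 1.5-fold rule. Of these targets 2, 3 and 19 were lower with a pseudocount of 5, without the length trend and at 1.5-fold. Their median was 0.019, 0.077 and 0.14 under the 3 scalings and 0.022 without the length trend. Mitotic genes called lower numbered 7, 1, 2, 1, 1, 1 and 14 with pseudocounts of 0.1 and 5, the 3 scalings, no length trend and 1.5-fold. Their median was -0.48 with a pseudocount of 5, -0.55, -0.50 and -0.44 under the 3 scalings and -0.45 without the length trend. Over all genes 112, 519, 595, 690, 526 and 856 were higher with a pseudocount of 5, the 3 scalings, no length trend and 1.5-fold. Lower were 1336, 207, 447, 392, 339, 347 and 2850 with pseudocounts of 0.1 and 5 and then in that order. The cause of these moves was not tested beyond what each setting does by construction. Among the 10 genes depth limited Cdkn1a most, with an estimated 141 fragments in f/f and 203 in ed/ed.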

Other observations

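The sequence GGACT, the commonest form of the motif that the Mettl3 complex methylates, was counted in the longest coding transcript of each gene (GENCODE M21). It occurred in 9 of the 10 p53 pathway genes and in 92.2% of 12158 expressed genes, with a median of 1.15 per kb in the 10 genes and 1.05 per kb over all. Bbc3 had 5 in 1814 nt and Bax 3 in 1100 nt, the highest densities of the 10 at 2.76 and 2.73 per kb. Any relation between the density of the motif and the ratio of a gene was not tested. Trp53 had 0 in 1867 nt and Gadd45a 1 in 1223 nt. A match is not a methylated site, and methylation was not measured here.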
